A study of Homo sapiens with 29 samples.

Results

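The 38 genes described here build and run the mitotic spindle and control entry into and exit from mitosis. They were taken as a list of symbols, and their rows were looked up in a gene table of RNA sequencing after siRNA against hnRNPA1 and in 3 lists of genomic windows from immunoprecipitation of hnRNPA1. All 38 were found in the gene table of 16382 genes. They carried 45 of 13007 windows in the whole-cell list, 2 of 1519 in the cytosolic list and 11 of 1672 in the mitochondrial list. All libraries came from HEK293, an established human embryonic kidney cell line that carries adenovirus genes. Some products of these adenovirus genes bind the retinoblastoma protein family.

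The series holds 29 libraries. For RNA immunoprecipitation (RIP), RNA was pulled down from untreated cells with an antibody against hnRNPA1, an RNA-binding protein of splicing and RNA transport, or with normal IgG as the control. There were 3 IgG and 3 hnRNPA1 samples from whole cells, 4 and 4 from cytosol, and 3 and 4 from mitochondria. For the knockdown, total RNA was sequenced from 4 samples with control siRNA and 4 with hnRNPA1 siRNA, and none of the sources used here gives the siRNA's sequence, dose or duration. The labels do not say whether the 4 samples of an arm were separate cultures, and the p-values therefore refer to sample-to-sample spread that could be technical.

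Mitosis begins when CDK1 bound to a cyclin B is switched on by CDC25 phosphatases. Microtubules of the spindle attach to kinetochores through the NDC80 complex, and the spindle checkpoint holds back the anaphase-promoting complex and its activator CDC20 until every kinetochore is attached. Separase then cuts cohesin, the chromatids part and a contractile ring divides the cell. Many of these genes are transcribed in late cell cycle under the MuvB and DREAM complexes, which bind a promoter element called the cell cycle genes homology region (CHR), together with NF-Y at CCAAT boxes and with FOXM1.

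The siRNA lowered its target. HNRNPA1 had 18637, 20403, 18614 and 19348 normalised reads in control samples 1 to 4 and 6506, 6413, 7185 and 5306 in knockdown samples 1 to 4, which left 33.0% of the control mean (log2 fold change -1.61 with SE 0.09, limma adjusted p = 2.23e-06). The normalised reads summed to between 17970000 and 20940000 per library. Markers listed for HEK293 were above 0 in every library for 6 of 7 genes (summed level 4757 to 5027 in controls and 3965 to 4733 in knockdown samples), and the seventh, SALL4, was not among the genes of the table. PAX2, the lowest of the 6, had only 4.92 to 16.9 normalised reads. Of the markers of other cell types, 3 of 6 for fibroblasts were in the table (summed level 105 to 123 in controls and 83.0 to 118 in knockdown samples), 1 of 5 for endothelium (KDR, 15.9 to 26.6 and 8.65 to 18.7) and 1 of 5 for leukocytes (CD8A, 8.88 to 12.2 and 8.51 to 11.9), while PECAM1 and PTPRC were not among its genes.

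The promoters of these genes show what they share beyond the list of symbols. RefSeq (GRCh38.p14) gave 41 promoters, each 250 bases before to 50 bases after a gene start, for 32 of the 38 genes. TTK, BUB3, TPX2, BIRC5, AURKA and FOXM1 had no entry in the promoter table used here. The CHR was searched as TTTGAA and its reverse complement TTCAAA, and the CCAAT box as CCAAT and its reverse complement ATTGG, on both strands, and a CHR match overlapped a CCAAT match 2 times in these promoters.

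In the stretch from 100 bases before to 50 bases after the start, a CHR match lay in 23 of the 41 promoters (56.1%), against 6.84% of all 35116 promoters of the same length. A CCAAT match lay in that stretch in 24 (58.5%), against 21.3% of all promoters. Both lay in it in 17 (41.5%), against 1.73% of all promoters. The 41 promoters belong to 32 genes, so alternative starts of 1 gene share sequence. All 35116 promoters belong to 27305 genes and were not filtered by expression or gene type, so the 2 sets differ in more than the list. A match is a description of letters and was not tested for binding.

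The 7 stretches below are shown because they belong to the gene that rose (ESPL1), to the gene that fell (NUF2), and to 5 of the genes with an hnRNPA1 window that covered the gene start (CCNA2, PLK1, KIF11, ANLN and CDC20). Each runs 5′ to 3′ on the strand of the gene from 100 bases before to 50 bases after the start, and capitals mark CHR and CCAAT matches on either strand. The ESPL1 stretch is chr12:53268199-53268348 on the plus strand, NUF2 is chr1:163321854-163322003 on the plus strand and CCNA2 is chr4:121823834-121823983 on the minus strand. PLK1 is chr16:23678789-23678938, KIF11 is chr10:92593030-92593179, ANLN is chr7:36389762-36389911 and CDC20 is chr1:43358881-43359030, all on the plus strand.
ESPL1: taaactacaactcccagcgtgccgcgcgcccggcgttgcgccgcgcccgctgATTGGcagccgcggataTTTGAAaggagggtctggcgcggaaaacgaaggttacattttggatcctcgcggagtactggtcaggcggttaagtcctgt
NUF2: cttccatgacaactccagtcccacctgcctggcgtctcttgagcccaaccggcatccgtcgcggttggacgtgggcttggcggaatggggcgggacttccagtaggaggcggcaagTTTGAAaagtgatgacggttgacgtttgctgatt
CCNA2: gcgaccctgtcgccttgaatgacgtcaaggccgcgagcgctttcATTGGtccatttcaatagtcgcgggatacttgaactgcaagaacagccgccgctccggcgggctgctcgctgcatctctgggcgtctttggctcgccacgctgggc
PLK1: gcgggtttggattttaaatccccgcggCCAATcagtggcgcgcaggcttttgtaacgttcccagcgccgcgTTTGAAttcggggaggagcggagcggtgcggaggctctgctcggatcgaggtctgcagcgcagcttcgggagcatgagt
KIF11: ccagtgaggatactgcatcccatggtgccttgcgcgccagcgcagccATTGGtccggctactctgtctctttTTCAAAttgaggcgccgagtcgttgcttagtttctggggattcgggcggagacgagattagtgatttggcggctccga
ANLN: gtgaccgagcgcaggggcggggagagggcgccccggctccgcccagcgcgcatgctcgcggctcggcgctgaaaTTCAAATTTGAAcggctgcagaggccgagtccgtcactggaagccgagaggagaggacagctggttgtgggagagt
CDC20: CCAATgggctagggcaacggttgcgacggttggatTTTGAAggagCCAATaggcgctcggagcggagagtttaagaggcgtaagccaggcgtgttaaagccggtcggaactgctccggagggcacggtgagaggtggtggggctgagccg

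The stretches of ESPL1, PLK1 and KIF11 held 1 CCAAT match followed by 1 CHR match, whose first base lay at -31, -29 and -28, counted in bases from the first base of the gene. CDC20 held 2 CCAAT matches with 1 CHR match between them, at -65. ANLN held 2 adjoining CHR matches and no CCAAT match, and NUF2 held 1 CHR match, at 16 after the start, and no CCAAT match. CCNA2, the cyclin of S phase and early mitosis, held a CCAAT match and no exact TTTGAA. In this stretch 22 of the 32 genes with a promoter carried a CHR match, among them the gene that rose and the gene that fell.

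**Figure D1:**
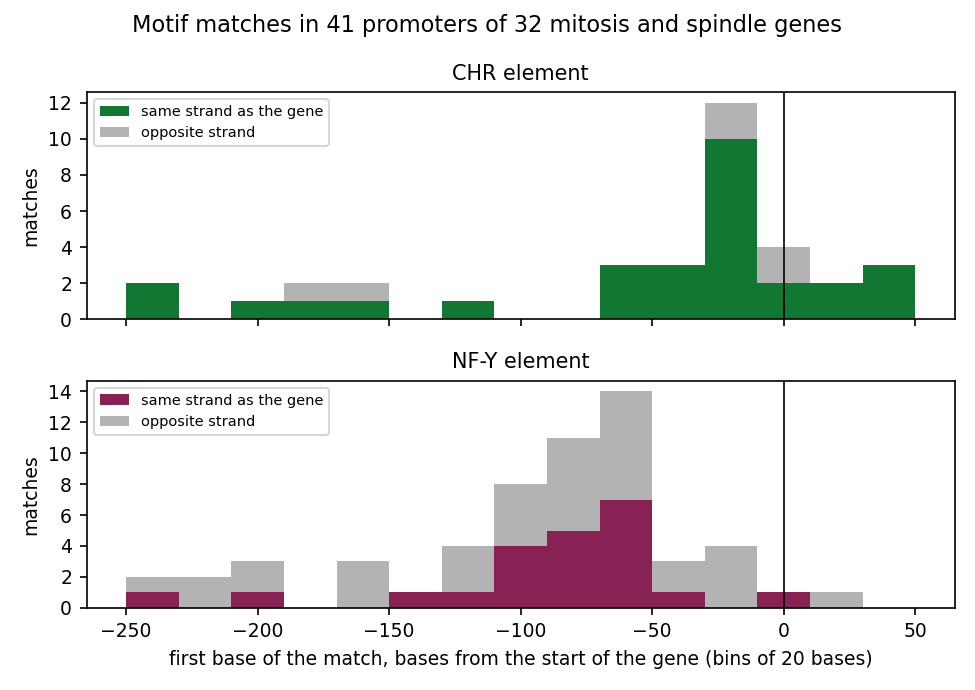
Motif matches in the 41 RefSeq promoters, by distance of the first base of the match from the gene start (x axis, bases, in bins of 20) and number of matches (y axis), with colour for matches on the strand of the gene and grey for the opposite strand. CHR matches pile up just before the start and CCAAT (NF-Y) matches somewhat further upstream, and 23 and 24 of the 41 promoters held one within 100 bases before to 50 bases after the start.

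With hnRNPA1 lowered, the log2 fold changes of the 38 genes lay between -0.38 and 0.40. ESPL1 (ENSG00000135476.12), which encodes separase, rose and NUF2 (ENSG00000143228.13), a subunit of the NDC80 complex, fell. No other of the 38 passed the test (limma on log2 of the normalised value + 1 without a block, Benjamini-Hochberg adjusted p under 0.05 over 15267 genes). The share of all genes tested that passed was 1.65% (0.675% higher and 0.976% lower). At an unadjusted p under 0.05 there were 8 higher and 4 lower genes of 38, where all genes tested gave 9.5% and 9.7%.

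The median log2 fold change of the 38 genes was 0.08, against 0.00392 over all genes tested, and 26 of 38 (68.4%) lay above 0, against 50.8% of all genes. A log2 fold change of more than 0.2 in either direction was seen in 9 of 38 (23.7%) and in 33.1% of all genes tested. In 5 genes (AURKB, ESPL1, INCENP, KIF4A and FOXM1) every knockdown sample lay above every control, and in 3 (TTK, BUB3 and NUF2) every knockdown sample lay below, where 5.69% and 5.95% of all genes tested did so. All 38 genes passed the filter on low values, with means over the 8 libraries between 415.6 and 21959. In bulk RNA, more or fewer cells in mitosis and more or less RNA per cell cannot be told apart.

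The number of genes past the test depended on single libraries. It was 2 with all libraries and 4 without knockdown sample 1 (ESPL1, NUF2, AURKB and TTK). It was 1 without control sample 2 (NUF2), 1 without control sample 3 (ESPL1), and 0 without control sample 1 or 4 or knockdown sample 2, 3 or 4. Over all genes the limma count of 252 moved to 73, 138, 156 and 61 without control samples 1 to 4. It was 254, 74, 69 and 193 without knockdown samples 1 to 4.

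**Figure D2:**
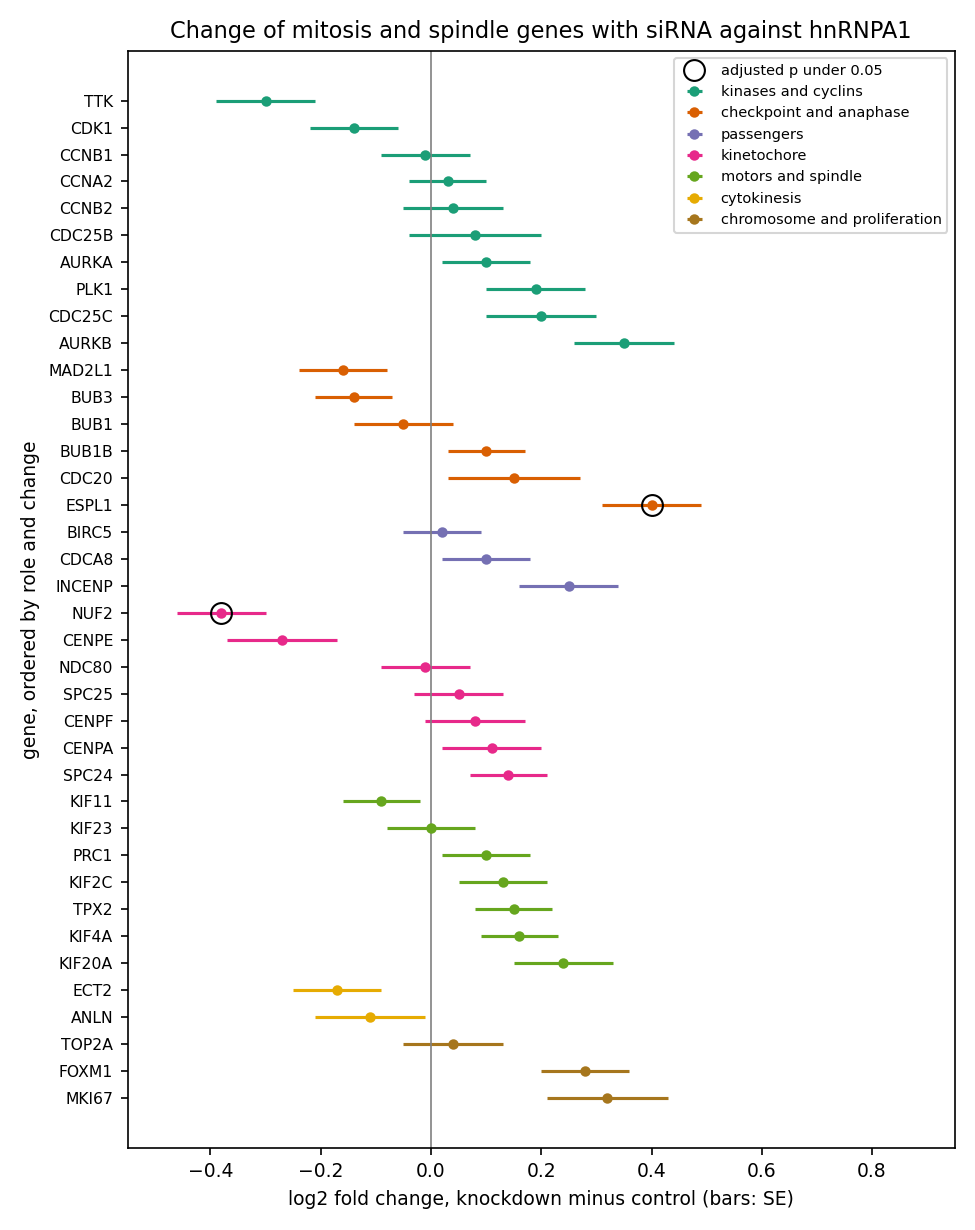
Log2 fold change, knockdown minus control (x axis), for each of the 38 genes (y axis, ordered by role and change), with 4 samples per group, points for the estimate and bars for its SE. The rings mark ESPL1 at 0.40 and NUF2 at -0.38, and most other bars lie within about 0.3 of 0.

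Among the 10 mitotic kinases, cyclins and CDC25 phosphatases none passed the test. AURKB alone was higher and TTK alone lower at an unadjusted limma p under 0.05, where all genes tested gave 9.5% and 9.7%. The median log2 fold change was 0.06, with a range from -0.30 to 0.35. AURKB, the kinase of the chromosomal passenger complex that corrects faulty attachments, had 1204, 1286, 1148 and 1254 normalised reads in control samples 1 to 4 and 1324, 1732, 1572 and 1629 in knockdown samples 1 to 4. All knockdown samples lay above all controls. The means were 1223 ± 60.7 and 1564 ± 173 (SD, n = 4 each), a 1.28-fold ratio (log2 fold change 0.35 with SE 0.09, limma adjusted p = 0.0587).

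TTK, the checkpoint kinase also called MPS1, had 2994, 2567, 2515 and 2757 normalised reads in the controls and 2495, 2174, 2175 and 1941 in the knockdown samples. All knockdown samples lay below all controls, with knockdown sample 4 the lowest. The means were 2708 ± 217 and 2196 ± 228 (SD, n = 4 each; log2 fold change -0.30 with SE 0.09, limma adjusted p = 0.0874). The limma adjusted p ranged from 0.0198 to 0.234 over the alternatives for TTK and from 0.0129 to 0.152 for AURKB. Both lowest values came from the fit with the replicate number as a block.

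PLK1, the polo kinase of centrosome maturation, spindle assembly and mitotic exit, had 834.5, 887.8, 977.8 and 931.8 normalised reads in the controls and 891.4, 993.6, 1089 and 1179.9 in the knockdown samples (log2 fold change 0.19 with SE 0.09, limma adjusted p = 0.28). Its groups overlapped, since knockdown sample 1 lay below 2 of the controls. AURKA, the spindle pole kinase, had a log2 fold change of 0.10 (SE 0.08). For the core of the cell cycle engine, CDK1 had a log2 fold change of -0.14 (SE 0.08), CCNB1 of -0.01 (SE 0.08), CCNB2 of 0.04 (SE 0.09) and CCNA2 of 0.03 (SE 0.07). None of these 5 passed the test (limma adjusted p from 0.354 to 0.942). CDC25B and CDC25C, which switch on CDK1, had log2 fold changes of 0.08 (SE 0.12) and 0.20 (SE 0.10).

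The 6 genes of the spindle checkpoint and of anaphase onset split by sign, 3 above and 3 below 0, and ESPL1 alone passed the test. ESPL1 had 954.6, 1069, 1224 and 1131 normalised reads in control samples 1 to 4 and 1251, 1504, 1541 and 1469 in knockdown samples 1 to 4. The lowest knockdown sample, number 1, lay just above the highest control, number 3. The means were 1095 ± 113 and 1441 ± 130.0 (SD, n = 4 each), a 1.32-fold rise (log2 fold change 0.40 with SE 0.09, limma adjusted p = 0.0471). The call was kept in 2 of 8 fits that left out 1 library, without control sample 3 or knockdown sample 1. Its limma adjusted p ranged from 0.00426, with the replicate number as a block, to 0.138 over all alternatives.

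BUB3 and MAD2L1 are parts of the mitotic checkpoint complex that holds CDC20 inactive. BUB3 had 4820.0, 4292, 4415 and 4327 normalised reads in the controls and 3881, 4106, 4157 and 4036 in the knockdown samples (log2 fold change -0.14 with SE 0.07, limma adjusted p = 0.277). Every knockdown sample of BUB3 lay below every control, by a small margin. MAD2L1 had 3740.4, 3158, 3421 and 3750.3 in the controls and 3126, 2909.8, 3425 and 3108 in the knockdown samples (log2 fold change -0.16 with SE 0.08, limma adjusted p = 0.282), with overlapping groups. The checkpoint genes BUB1 and BUB1B had log2 fold changes of -0.05 (SE 0.09) and 0.10 (SE 0.07), and CDC20, which activates the anaphase-promoting complex, of 0.15 (SE 0.12).

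The chromosomal passenger subunits that anchor AURKB at centromere and midzone were all above 0 and none of the 3 passed the test. INCENP was higher at an unadjusted limma p of 0.0125, where 9.5% of all genes tested were higher at p under 0.05. INCENP, the scaffold of the complex, had 498.9, 597, 616 and 590.1 normalised reads in the controls and 629.5, 717.6, 665.7 and 718.1 in the knockdown samples. All knockdown samples lay above all controls. The means were 575.5 ± 52.2 and 682.7 ± 43.2 (SD, n = 4 each; log2 fold change 0.25 with SE 0.09, limma adjusted p = 0.148). Survivin (BIRC5) and borealin (CDCA8) had log2 fold changes of 0.02 (SE 0.07) and 0.10 (SE 0.08).

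At the kinetochore, NUF2 fell while the other subunits of its complex did not pass the test. NUF2 had 1456, 1187, 1213 and 1268 normalised reads in control samples 1 to 4 and 1018, 1033, 989.1 and 887.9 in knockdown samples 1 to 4. Every knockdown sample lay below every control, with control sample 1 the highest and knockdown sample 4 the lowest. The means were 1281 ± 121 and 981.9 ± 65.2 (SD, n = 4 each), a ratio of 0.767 (log2 fold change -0.38 with SE 0.08, limma adjusted p = 0.0394). The call was kept without control sample 2 and without knockdown sample 1 and lost without any other single library. Its limma adjusted p ranged from 0.0107, with the replicate number as a block, to 0.111 over all alternatives.

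The partners of NUF2 in the NDC80 complex, which grips microtubule ends, had log2 fold changes of -0.01 (SE 0.08) for NDC80, 0.14 (SE 0.07) for SPC24 and 0.05 (SE 0.08) for SPC25. Whether NUF2 differed from its partners was not tested. CENPE, the kinesin that moves chromosomes to the spindle equator, had 3328, 3115, 3346 and 3594 normalised reads in the controls and 3200.2, 2809, 2947 and 2199 in the knockdown samples (log2 fold change -0.27 with SE 0.10, limma adjusted p = 0.167). Knockdown sample 1 lay inside the control range, and sample 4 was the lowest of the 8. CENPF, a large kinetochore protein, had 10348, 11784, 11506 and 11716 in the controls and 13309, 11980.5, 12422 and 10401 in the knockdown samples (log2 fold change 0.08 with SE 0.09, limma adjusted p = 0.672), with groups that overlapped. The centromeric histone CENPA had a log2 fold change of 0.11 (SE 0.09).

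Of the 7 genes for spindle motors and microtubule factors, 6 lay above 0 with a median log2 fold change of 0.13. None passed the test, and 3 were higher at an unadjusted limma p under 0.05, as were 9.5% of all genes tested. KIF20A, a kinesin of the central spindle, had 1684, 1813, 1391 and 1534 normalised reads in the controls and 1992, 2004, 1859 and 1685 in the knockdown samples (log2 fold change 0.24 with SE 0.09, limma adjusted p = 0.179). Knockdown sample 4 lay below control sample 2, so the groups overlapped. KIF4A, a chromosome-bound kinesin, had 1521, 1582, 1609.7 and 1649 in the controls and 1686, 1807, 1879.5 and 1732 in the knockdown samples (log2 fold change 0.16 with SE 0.07, limma adjusted p = 0.214). Every knockdown sample of KIF4A lay above every control.

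PRC1, which bundles the microtubules of the midzone, had 6072, 6372, 5401 and 5844 normalised reads in the controls and 6312, 6677, 6538 and 5890.4 in the knockdown samples (log2 fold change 0.10 with SE 0.08, limma adjusted p = 0.498). Its groups overlapped. TPX2, which activates AURKA and nucleates microtubules, had a log2 fold change of 0.15 (SE 0.07), the depolymerising kinesin KIF2C of 0.13 (SE 0.08), the pole-separating kinesin KIF11 of -0.09 (SE 0.07) and the midbody kinesin KIF23 of 0.00 (SE 0.08). None of these 4 passed the test (limma adjusted p from 0.245 to 0.995).

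Both genes of the contractile ring lay below 0 and neither passed the test. ANLN, the scaffold of the ring, had 3124, 3355, 2888 and 2998 normalised reads in the controls and 3344, 3028, 2802 and 2342 in the knockdown samples (log2 fold change -0.11 with SE 0.10, limma adjusted p = 0.574). ECT2, the exchange factor that activates RhoA at the cell equator, had 2564, 2355, 2320.4 and 2473 in the controls and 2396, 2084, 2227 and 1944 in the knockdown samples (log2 fold change -0.17 with SE 0.08, limma adjusted p = 0.245). The groups overlapped for both genes, and knockdown sample 4 was the lowest of the 8 for both.

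TOP2A, MKI67 and FOXM1 all lay above 0 and none passed the test. MKI67 and FOXM1 had an unadjusted limma p of 0.0122 and 0.00416, where 9.5% of all genes tested were higher at p under 0.05. FOXM1, a transcription factor of late cell cycle genes, had 950.6, 934.4, 1044 and 1018 normalised reads in the controls and 1096, 1109.9, 1264 and 1316 in the knockdown samples. All knockdown samples lay above all controls. The means were 986.5 ± 52.3 and 1197 ± 110.0 (SD, n = 4 each; log2 fold change 0.28 with SE 0.08, limma adjusted p = 0.0945).

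MKI67, the proliferation antigen that coats mitotic chromosomes, had 3866, 5160.3, 5335 and 5044 normalised reads in the controls and 7106, 5879.9, 5990.0 and 5253 in the knockdown samples (log2 fold change 0.32 with SE 0.11, limma adjusted p = 0.147). Control sample 1 was the lowest and knockdown sample 1 the highest, and knockdown sample 4 lay below control sample 3. TOP2A, the topoisomerase that untangles chromatids, had 22434, 20366, 21379 and 22511 in the controls and 22891, 20694, 24160.4 and 21232 in the knockdown samples (log2 fold change 0.04 with SE 0.09, limma adjusted p = 0.865). Its groups overlapped.

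**Figure D3:**
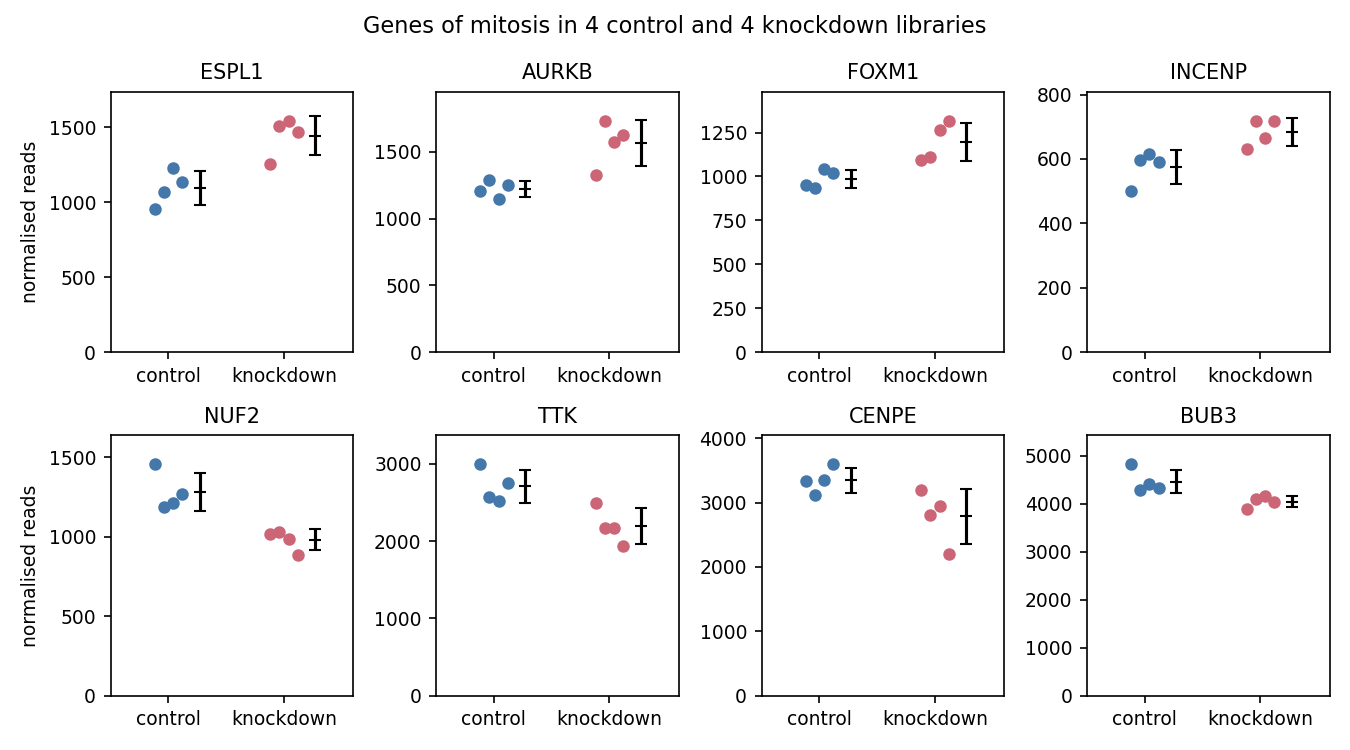
Normalised reads (y axis, from 0) in the 4 control and 4 knockdown samples for 8 genes, with points for samples and bars for the mean and SD. ESPL1, AURKB, FOXM1 and INCENP lie higher and NUF2, TTK and BUB3 lower in every knockdown sample than in every control, while the groups of CENPE overlap.

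Samples of the same group differed among themselves. The median over the 38 genes of the log2 deviation from each gene's mean was 0.00, -0.01, -0.04 and -0.03 in control samples 1 to 4 and 0.04, 0.04, 0.07 and -0.04 in knockdown samples 1 to 4. Knockdown sample 4 thus lay at the value of control sample 3. Over all genes tested the same median lay between 0.002 and 0.006 in every library.

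Knockdown sample 4 was the lowest of the 8 for 9 genes and the highest for 6. Control sample 1 was the highest for 8 and the lowest for 8, and control sample 3 was the lowest for 10 and the highest for 0. Together the 38 genes took 0.544% to 0.633% of all normalised reads. Control sample 1 had the lowest share and knockdown sample 3 the highest, and the ranges of the groups overlapped.

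**Figure D4:**
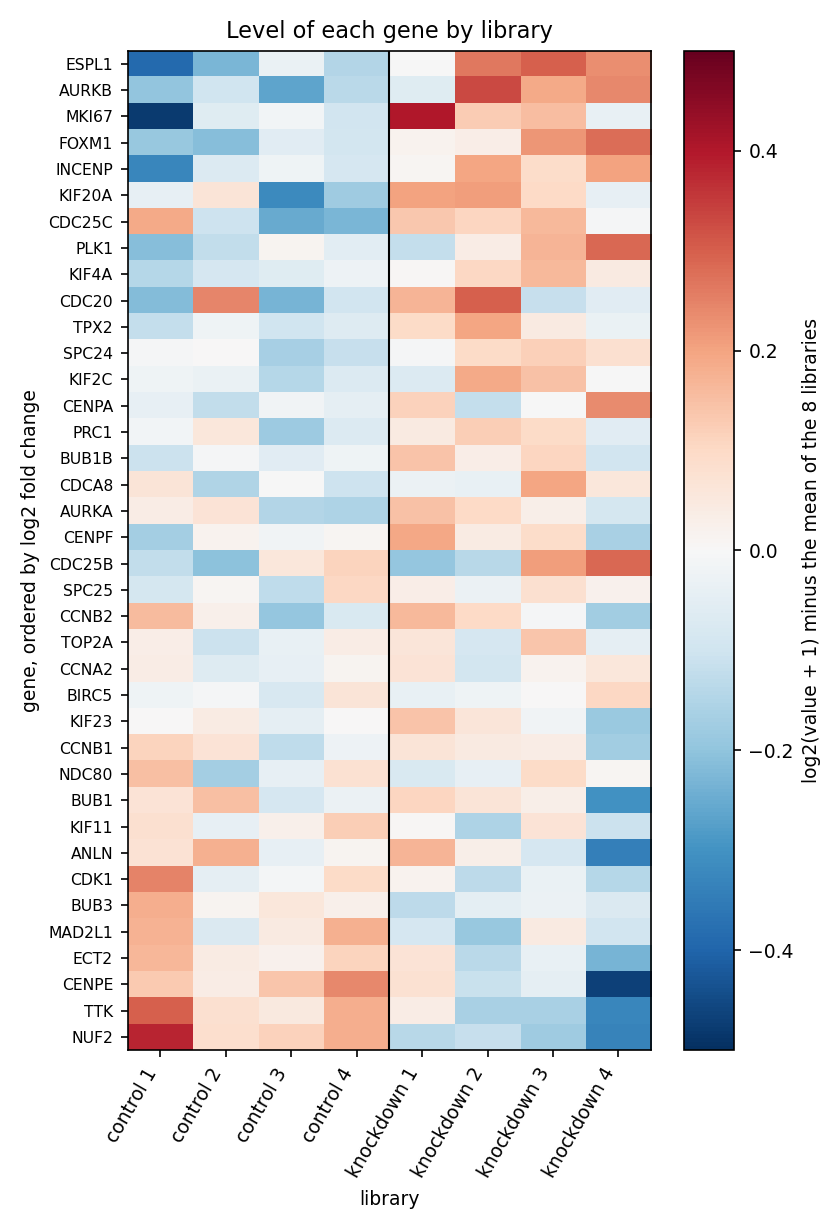
Deviation of log2(value + 1) from the mean of the 8 libraries (colour) for each of the 38 genes (y axis, ordered by log2 fold change) in each control and knockdown library (x axis). Rows at the top, led by ESPL1, turn from blue to red across the groups and rows at the bottom, ending with NUF2, from red to blue, and the middle rows vary within groups.

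Other lists of the same pathway held 5 genes that passed the test, where 1.65% of all genes tested passed, 19.2% had an unadjusted limma p under 0.05 and 50.8% lay above 0. Of 53 further spindle and kinetochore genes, 1 rose and 1 fell, 16 had an unadjusted limma p under 0.05 and 18 lay above 0 (median log2 fold change -0.06). Most of these 53 thus lay below 0, where most of the 38 lay above it, and the difference between the lists was not tested. TACC3, a clathrin-bound crosslinker of spindle fibres, had 472.4, 493.8, 608.5 and 633.4 normalised reads in the controls and 794.4, 749.1, 747.4 and 712.7 in the knockdown samples (log2 fold change 0.45 with SE 0.10, limma adjusted p = 0.0397). CENPC, which links centromeric chromatin to the kinetochore, had 689.8, 624.8, 666.6 and 688.3 in the controls and 567, 518.5, 539.7 and 501.8 in the knockdown samples (log2 fold change -0.33 with SE 0.08, limma adjusted p = 0.0479). For both genes the groups did not overlap.

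Among 19 condensin and cohesin genes 1 rose, none fell, 7 had an unadjusted limma p under 0.05 and 10 lay above 0. NCAPD2, a subunit of condensin I, had 2752, 3277, 3091 and 3072 normalised reads in the controls and 4012, 4149.9, 4037 and 3722 in the knockdown samples (log2 fold change 0.39 with SE 0.07, limma adjusted p = 0.0227). All knockdown samples lay above all controls. Of 12 DREAM and MuvB regulators 1 fell, 3 had an unadjusted limma p under 0.05 and 5 lay above 0. RBL2 (p130), the pocket protein of DREAM that represses such genes in quiescence, had 1937, 1952, 2012 and 1969.5 in the controls and 1687, 1614, 1548 and 1601 in the knockdown samples (log2 fold change -0.29 with SE 0.06, limma adjusted p = 0.0397), with no overlap.

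Of 15 genes for G1/S cyclins, E2F factors and other regulators of the G1/S transition, 1 fell, 2 had an unadjusted limma p under 0.05 and 9 lay above 0, against the shares over all genes given above. CCND1, cyclin D1, had 499.9, 699.1, 666.6 and 627.6 normalised reads in the controls and 461.3, 355.8, 459.7 and 407.7 in the knockdown samples (log2 fold change -0.56 with SE 0.12, limma adjusted p = 0.0322), and all knockdown samples lay below all controls. None of 18 genes of the anaphase-promoting complex and its regulators passed limma's test (4 at an unadjusted p under 0.05, 9 above 0), and the smallest p was that of the inhibitor FBXO5 (log2 fold change -0.30, SE 0.08).

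These 5 calls also depended on single libraries. Of 8 fits that each left out 1 library, TACC3 passed in 3 (without control sample 3 or 4 or knockdown sample 4), CENPC and RBL2 in 1 each (without knockdown sample 1) and CCND1 in 2 (without control sample 1 or knockdown sample 1). NCAPD2 passed in 4 and was lost without control sample 1 or 4 or knockdown sample 2 or 3. The highest limma adjusted p over all alternatives was 0.122 for TACC3, 0.146 for CENPC, 0.0827 for NCAPD2, 0.125 for RBL2 and 0.0954 for CCND1.

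In the immunoprecipitation, 27 of the 38 genes had at least 1 window, 26 of them on the gene's RefSeq span. Each window is 500 bases long and carries the authors' own signal value and q, with 1 list per compartment over its samples, so the replicates cannot be compared. No source used here gives the scale of the signal value; over each whole list it began at 0.70 and had a median of 1.22 to 1.25, and it is used here only to rank windows within a list. A window is a region enriched in a pull-down and not a mapped contact site, and exon or intron position was not analysed here.

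In the whole-cell list 25 of 38 genes (65.8%) had a window by the list's gene IDs, or 24 (63.2%) without CENPA, whose windows lay outside its RefSeq span. By gene IDs the share was above the 37.1% of all genes in the siRNA table but near the 65.1% of genes within the same range of expression. In the cytosolic list 2 of 38 genes (5.26%) had one, against 5.04% of all genes and 8.07% within that range. In the mitochondrial list 6 of 38 (15.8%) had one, against 6.01% and 11.6%. The whole-cell share thus lay near that of genes within that range. The range ran from the lowest to the highest mean of the 38 genes (415.6 to 21959), so the genes were not matched by expression. No difference between shares was tested. The 11 genes with no window in any list were CDC25B, CDC25C, BUB1B, INCENP, CDCA8, NDC80, NUF2, SPC25, KIF20A, KIF4A and FOXM1.

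The lists name no genome build. Of the 45 whole-cell windows, 43 (95.6%) touched the gene's RefSeq span in GRCh38.p14, and 26 of these began a whole multiple of 500 bases from the lower coordinate of the span, so positions along genes are given against those spans. Of the 43, 7 (16.3%) covered the gene start, 8 (18.6%) covered the gene end and 21 (48.8%) had their centre in the last 10% of the gene. Over all genes with a span these shares were 12.8%, 9.51% and 38.8%. Windows of 1 gene can adjoin and are not independent.

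The kinases and cyclins gave the window with the highest signal value. It lay in CCNA2 at chr4:121823444-121823944 on the minus strand, covered the gene start, had a signal value of 3.42 and ranked 55 of 13007. The AURKB window, chr17:8208733-8209233 on the minus strand, had a signal value of 1.90 and lay 27.2% along the gene. Windows of TTK (1.65) and AURKA (1.37) covered the gene end, and that of CDK1 (1.05) covered the gene start. CCNB1 had 2 windows (0.87 and 1.44). The CCNB2 window (1.27) overlapped one of another gene ID on the same strand.

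Among checkpoint genes BUB3 had 5 whole-cell windows with signal values of 0.88 to 1.00, 2 at the start of the gene and 3 in its last part. MAD2L1 had 3 (1.24 to 1.40) in its last part, and CDC20 had 1 (0.81) at its start. ESPL1 had 2 whole-cell windows (0.86 and 1.00) and 2 mitochondrial ones (0.95 and 1.11). The window at chr12:53283799-53284299 on the plus strand was in both lists. NUF2, the gene that fell, had no window in any list.

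At the kinetochore CENPE had 2 windows at its end (1.84 and 1.44) and CENPF had 3 (1.55, 0.81 and 1.11). The CENPF window at chr1:214663695-214664195 on the plus strand was also in the mitochondrial list, with a signal value of 1.27. Both windows listed for CENPA lay outside its RefSeq span and overlapped windows of SLC35F6 on the same strand, so they cannot be assigned to CENPA. The kinesin KIF2C had 1 window of 2.28, chr1:44753318-44753818 on the plus strand, which ranked 567 of 13007. MKI67 had 5 adjoining windows from 128096659 to 128099159 on chromosome 10, minus strand, with signal values of 1.73, 1.95, 1.94, 0.86 and 0.71, all within the last 10% of the gene. TPX2 had 1 window (1.38) and KIF11 2 (0.85 and 1.31), of which those of 1.38 and 0.85 covered the gene start and that of 1.31 the gene end. ECT2 (1.35) and BIRC5 (0.74) had 1 each and SPC24 had 2 (1.02 and 1.12), all towards the end of the gene.

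The mitochondrial list held windows of ANLN, CENPF, ESPL1, KIF23, PLK1 and PRC1, all nuclear genes. KIF23 had 4 adjoining windows from 69430746 to 69432746 on chromosome 15, plus strand, near the middle of the gene. Their signal values were 1.93, 1.27, 1.00 and 1.19, the first ranked 97 of 1672, and KIF23 had no window in the other lists. ANLN had a window of 2.06 near its end (98.9% along the gene), which ranked 65 of 1672, and a second of 0.98. In the whole-cell list the 2 ANLN windows lay elsewhere, at the start (1.20) and 26.1% along the gene (1.27).

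PLK1 had a mitochondrial window of 1.11 that covered its start and a whole-cell window of 0.88 at 96.0% of its length. PRC1 had whole-cell windows of 1.72 and 1.06 and a mitochondrial one of 1.10. The windows of 1.72 and 1.10 overlapped those of another gene ID on the same strand. That of 1.72 also overlapped a PRC1-AS1 window on the opposite strand. In all, 5 of the 6 genes with a mitochondrial window (83.3%), which are 20% of the 25 with a whole-cell window, were in both lists, but 2 of the 11 mitochondrial windows overlapped a whole-cell window. The purity of the mitochondrial fraction was not tested.

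The cytosolic list held BUB1 (chr2:110651198-110651698 on the minus strand, signal value 1.37) and TOP2A (chr17:40397525-40398025 on the minus strand, signal value 0.95). Neither window overlapped a window of the other lists. TOP2A also had a whole-cell window (1.01), 63.4% along the gene, where the cytosolic one lay at 68.5%.

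**Figure D5:**
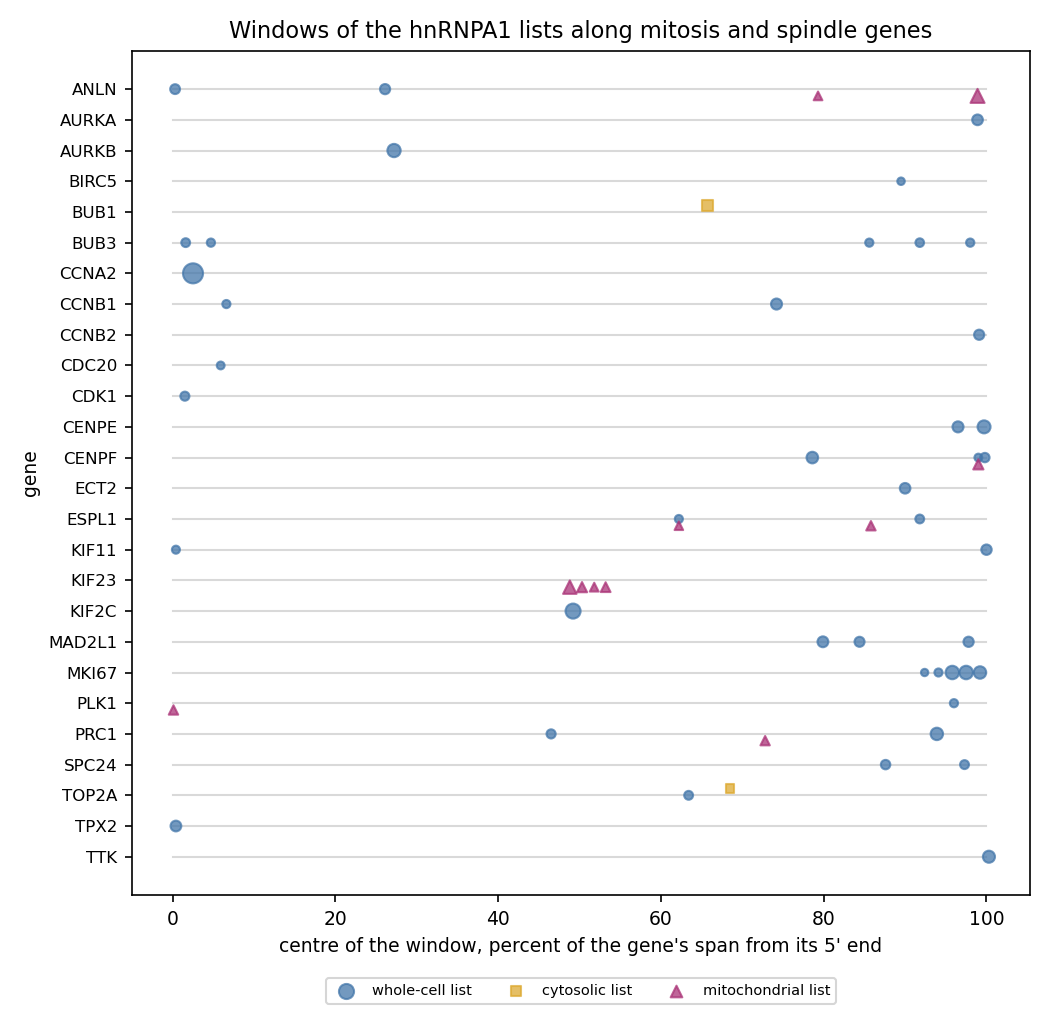
Centre of each window as percent of the gene's RefSeq span from its 5′ end (x axis) for the 26 genes with a window on their span (y axis), with circles for the whole-cell list, squares for the cytosolic list and triangles for the mitochondrial list, and larger markers for higher signal values. Of the whole-cell windows 21 of 43 (48.8%) lie in the last 10% of the gene, against 38.8% for all genes with a span, and the 4 KIF23 windows of the mitochondrial list lie near the middle.

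The lists of windows and the knockdown can be set side by side. The 25 genes with a whole-cell window had a median log2 fold change of 0.04, with 16 above 0, and the 13 without had 0.10, with 10 above 0. With CENPA counted among those without, the medians were again 0.04 (24 genes, 15 above 0) and 0.10 (14 genes, 11 above 0). Among the genes whose knockdown and control samples did not overlap, AURKB, ESPL1, TTK and BUB3 had whole-cell windows, and FOXM1, INCENP, KIF4A and NUF2 did not. The difference in fold change between genes with and without windows was not tested.

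The libraries were made with a kit that keeps strand, but the sources used here do not say whether reads were counted by strand. Reads of a gene and an opposite-strand neighbour may therefore be mixed where their RefSeq spans overlap. This holds for CCNA2 (EXOSC9), KIF20A (CDC23), CDC25C (FAM53C, LOC100128966), ANLN (MATCAP2), SPC25 (NOSTRIN), PRC1 (PRC1-AS1) and BUB1B (LOC107984763). BUB1B also shares its strand with the readthrough gene BUB1B-PAK6. FOXM1 overlaps ITFG2 and RHNO1, PLK1 overlaps ERN2 and KIF23 overlaps KIF23-AS1, with strands not compared here. KIF2C, CENPF, BUB1, ECT2, CCNB1, KIF11, KIF23, NDC80 and KIF4A also overlap RefSeq entries whose strand was not compared. ESPL1, NUF2, AURKB, TTK, INCENP and MKI67 overlapped no other RefSeq gene.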

How the data were processed

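The gene table of the siRNA samples holds a signal per gene and library, the normalised reads that the authors deposited; the submitters' processing notes name hg38, Partek, STAR 2.7.8a and DESeq2, with no role or order. Not all low values are whole multiples of a common step per library, so they were not tested as counts. Of 16382 genes, 15267 reached 10 normalised reads in 4 or more libraries and were fitted with limma 3.58.1 (R 4.3.3, limma-trend) on log2(value + 1), without a block, and p-values were adjusted by Benjamini-Hochberg over all of them. A fold change on this scale understates the change of low genes. The fit was tested on simulated data.

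The peak lists hold, per window, the authors' signal value (a score of unstated scale) and a q-value, both as deposited, with q under 0.05 in every window. The name under which the lists were deposited carries CLAM, a peak caller for RNA-binding protein data; no version, settings or build are stated for the immunoprecipitation samples in the sources used here, and hg38 is named for the siRNA samples. Windows were given to genes by the lists' own gene IDs. Gene symbols were matched for 16358 of 16382 IDs. Python 3.11.15 with pandas 2.3.3 made the joins and promoter searches.

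The genes and all other lists were chosen with earlier results of these data known. Values per library are given for genes past the test with or without the replicate block, for the 5 largest rises and falls, and for genes with windows in 2 or more lists; BUB3, KIF4A and the windows discussed singly were chosen after their values were seen. From each other list, genes past the test and the gene with the smallest p are named; 1 such list is not reported here. The alternatives were another pseudocount, 2 other filters, another scaling, the block, a stricter threshold, each library left out, and stricter windows.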

Additional observations from a re-analysis of the deposited data

Results flagged for a closer look

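For each gene the 4 control and the 4 knockdown values were screened for a sample far from the others (by Dixon's ratio, the gap to the nearest sample over the group's range, at its 95% critical value). Of 76 groups tested, 1 was flagged, where chance flags about 1 in 20. CCNB1, cyclin B1, had 2824 normalised reads in knockdown sample 4, and the other 3 knockdown samples had 3269 to 3335, which put the gap at 0.87 of the range.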

How the results depend on the processing

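With another pseudocount (0.1), without the filter, with only genes whose expression exceeded the median or with another scaling (size factors 1.002 to 1.005, a shift of -0.000275 in the median log2 fold change), 2 or 3 of the 38 genes and 224 to 298 of all genes passed limma's test, against 2 and 252 in the fit reported; without the filter CENPC no longer passed (adjusted p = 0.0503). At an adjusted p under 0.01 the counts were 0 and 48 (12 of the 38 at an unadjusted p under 0.05). Without 1 library at a time they ranged from 0 to 4 and from 61 to 254, and the median log2 fold change of the 38 from 0.05 to 0.09. Without 1 library the sign of the log2 fold change turned for CCNB1 (-0.058 to 0.042), CCNB2 (-0.016 to 0.11), BUB1 (-0.10 to 0.041), BIRC5 (-0.0086 to 0.048), NDC80 (-0.064 to 0.042), KIF23 (-0.047 to 0.064) and TOP2A (-0.0046 to 0.070), none of them past the test; the cause was not tested.

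With the replicate number as a block, 7 of the 38 genes (FOXM1, TTK, KIF20A, ESPL1, NUF2, INCENP and AURKB) and 1191 of all genes passed. Samples with the same number deviated together with correlations of 0.119, 0.292, 0.0431 and 0.234 for numbers 1 to 4. Samples with different numbers gave correlations from -0.251 to 0.247. Control samples 1, 2 and 4 correlated best with the knockdown sample of their own number, and control sample 3 with knockdown sample 4 (0.247). The labels do not state a pairing, and the fit reported used no block.

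Windows with q of at most 0.005 left 0 genes in the cytosolic list, and windows above the median signal value left 1 there and 3 in the mitochondrial list; whole-cell counts stayed within 1.5 times. Windows assigned by gene span rather than by the lists' gene IDs kept their counts within 1.5 times. The 4 samples per group limit what a fit can call, and the lists give no value per sample.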
